A study of Homo sapiens with 16 samples.

Results

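The comparison described here set T-47D cells given 17β-estradiol (E2) for 8 h against T-47D cells at 0 h (vehicle). Its members were chosen by label, as the 2 libraries of each of these time points in the T-47D count table, which makes 4 of the 8 T-47D libraries and 4 of the 16 bulk RNA-seq libraries of the study. The study followed the transcriptional response to E2 over time in T-47D and Ishikawa cells, with 2 replicates at 0, 2, 4 and 8 h in each line. T-47D is a human breast ductal carcinoma line that carries the estrogen receptor. Before treatment all cells, the 0 h cells included, were kept in phenol-red free medium with charcoal-stripped serum to remove hormones, for 3 days by the sample labels and for 5 days by the study's methods. The 8 h cells then received 10 nM E2 and the 0 h cells received the vehicle only. No separate vehicle group is labelled for 8 h, so changes with E2 and changes with elapsed time cannot be told apart. No source used here says that replicates came from separate cultures, so the p-values measure the spread between these libraries, which may be technical, and all results come from 1 cell line.

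E2 acts mainly through estrogen receptor alpha, a nuclear receptor that binds DNA once the hormone is bound and recruits coregulators to nearby and distant target genes. In luminal breast cells it turns on a set of direct targets, among them the progesterone receptor and growth-related transcription factors, and it drives cells that have been deprived of hormone from G1 into S phase. Estrogen-dependent repression of other genes is well known in the same cells. The question put to the 8 h libraries was which genes had changed by this last time point, and which of those changes were not yet present at 2 h.

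Depth was similar, at 44488088 and 41223813 counts in the vehicle libraries and 50180199 and 50472464 in the libraries of 8 h. In all 8 T-47D libraries the TMM scaling factors lay between 0.992 and 1.005, and the biological coefficient of variation was 5.02%. Every replicate pair differed by more than sampling noise (chi-square per gene from 4.87 to 9.21), and 71.2% to 74.6% of the counts from 1 to 10 were even numbers, so a count need not stand for 1 fragment. The libraries showed luminal epithelial character, which does not tell T-47D from other lines of that kind. All 19 luminal breast epithelial markers examined were detected. They summed to 15789.7 to 16237 CPM (counts scaled to a common TMM-adjusted library size) at 0 h and 18291 to 18745 CPM at 8 h. The 14 basal and myoepithelial markers summed to 263 to 277 CPM at 0 h and 229 to 237 CPM at 8 h, with 5 of them under 1 CPM in all 4 libraries. Fibroblast markers summed to 101 to 111 CPM and 83.5 to 89.8 CPM, most of it COL1A1, with no count for PDGFRA, PDGFRB or POSTN. The 9 endothelial markers summed to 5.19 to 5.49 CPM with no count for CDH5, TEK, TIE1 or EMCN, and the 11 leukocyte markers to 4.46 to 6.11 CPM with none for LYZ or TYROBP.

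At 8 h of E2 the T-47D transcriptome had moved in both directions, with a few large increases and many small changes. The direct estrogen targets CXCL12, GREB1, STC2, MYC and MYB and the progesterone receptor PGR rose, and so did 49 of 52 tested genes of ribosome biogenesis, 41 of 50 of DNA replication and 28 of 33 cytosolic and mitochondrial chaperones. ERBB2, ID1, ID2, ID3, HES1 and many growth-restraining genes fell. All gene lists here were drawn up with earlier results of these data known, so their shares are a description and not independent evidence. Of 15594 genes tested with edgeR's quasi-likelihood test, 4629 differed between 8 h and 0 h at an adjusted p (Benjamini-Hochberg) under 0.05, which is 29.7%. Of these, 2404 were higher at 8 h (15.4% of the genes tested) and 2225 lower (14.3%). The median size of a called change was 0.33 on the log2 scale, and 72.6% of the calls were smaller than 0.5. Beyond 1 on the log2 scale, a doubling or halving, there were 244 genes higher (1.56%) and 154 lower (0.988%, or 96 genes with DESeq2), and 85 higher and 20 lower went beyond 2. The median over all genes tested was 0.00. Because the RNA came from whole cultures, fewer cells that express a gene and less RNA per cell cannot be told apart.

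**Figure D1:**
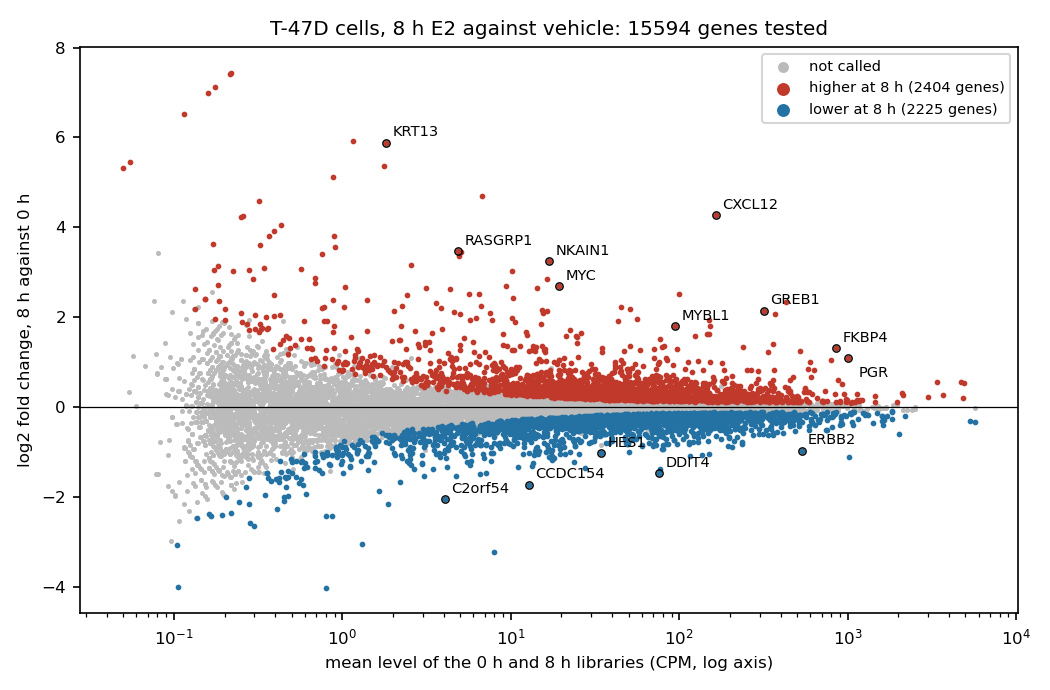
Log2 fold change at 8 h against 0 h of each of the 15594 genes tested in T-47D cells (y axis) over its mean CPM in the 0 h and 8 h libraries (x axis, log scale); red points are the 2404 genes called higher, blue points the 2225 called lower and grey points the rest, and circles mark named genes. CXCL12 stands at 4.27, above every gene of a higher mean level, and ERBB2 lies at -0.96.

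The estrogen receptor gene itself changed little. ESR1 (chr6:151977826-152450754, + strand, GRCh37) read 166 and 163 CPM with vehicle against 199 and 203 CPM after 8 h. Both 8 h libraries lay above both 0 h libraries, and the log2 fold change was 0.29 (SE 0.04, edgeR adjusted p = 5.68e-05). Such separation is common here, with 30.3% of all genes tested higher in both 8 h libraries than in both 0 h libraries and 29.8% lower in both, since a group holds only 2 libraries. Among 18 genes of the receptor, the luminal lineage factors and the coregulators, 4 rose, 6 fell and 8 did not pass. That is 22.2% and 33.3%, beside 15.4% of all genes called higher and 14.3% lower. Their median was -0.07 on the log2 scale. XBP1, a transcription factor of secretory cells, rose by 1.05 (SE 0.05), NRIP1, a corepressor of the liganded receptor, by 0.69 (SE 0.06), and TFAP2C, a luminal lineage factor, by 0.52 (SE 0.04). NCOA3, a p160 coactivator, fell by 0.40 (SE 0.04) and the ETS factor SPDEF fell by 0.51 (SE 0.05). The pioneer factor FOXA1 was at 420.2 and 403 CPM at 0 h and 372 and 400.5 CPM at 8 h, and GATA3 at 1165 and 1204 against 1149.6 and 1125 CPM. Neither passed the test.

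Nearly all of 40 textbook estrogen targets of luminal breast cells rose. Of them 37 passed as higher, none as lower, and the median log2 fold change was 1.03, beside 15.4% of all genes called higher. The exceptions were BCL2, the survival gene, at -0.04 (SE 0.12), TFF3, a secreted trefoil peptide, at 0.23 (SE 0.09), and CCN5 at 0.39 (SE 0.21). These genes were listed because they are known to respond, in studies that include this cell line, and with earlier results of these data known. Their direction is therefore a description and not independent evidence.

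CXCL12, the chemokine that binds CXCR4, had the largest change after KRT13 among the targets that met the naming rule. It was at 18.0 and 14.5 CPM at 0 h, 135 and 147 CPM at 2 h, 222 and 226 CPM at 4 h and 309.7 and 316 CPM at 8 h. Every later pair lay above the one before it. The fold change at 8 h was 19.2 (log2 4.27, SE 0.07, edgeR adjusted p = 7.38e-17).

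GREB1 (chr2:11622467-11782914, + strand), a cofactor of the receptor, went from 112 and 122 CPM with vehicle to 515 and 522 CPM at 8 h, a 4.43-fold increase. PGR (chr11:100900355-101000544, - strand), the progesterone receptor, went from 644 and 642 CPM to 1309 and 1426 CPM. Most of both increases was present at 2 h, when GREB1 was at 388 and 413 CPM and PGR at 1154 and 1200.3 CPM. Their log2 fold changes at 8 h were 2.15 (SE 0.05) for GREB1 and 1.09 (SE 0.04) for PGR.

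KRT13, a keratin of stratified epithelium, had the highest log2 fold change among the genes that met the naming rule, at 5.89 (SE 0.35), but from 3 and 2 counts at 0 h to 194 and 166 counts at 8 h. TFF1, the best known estrogen target of breast cells, was scarce in these cells at 33 and 24 counts with vehicle against 135 and 81 counts with E2. Its 8 h libraries lay 1.67-fold apart, and its log2 fold change was 1.70 (SE 0.29, edgeR adjusted p = 0.000243). OLFM1, a secreted olfactomedin protein, went from 33.7 and 26.0 CPM to 177 and 164 CPM. STC2, a secreted glycoprotein chosen after its values were seen, went from 142 and 143 CPM to 715 and 732 CPM, a log2 change of 2.34 (SE 0.05). The insulin-like growth factor binding protein IGFBP4 rose by 0.84 (SE 0.05), the retinoic acid receptor RARA by 0.85 (SE 0.06) and the lysosomal protease CTSD by 0.61 (SE 0.04).

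Other genes with the largest increases under the naming rule were RASGRP1, a RAS exchange factor, at 3.47 (SE 0.17), PLCL1, a phospholipase C related protein, at 3.46 (SE 0.16), and NKAIN1, a partner of the sodium pump, at 3.24 (SE 0.10). CYP2S1, a cytochrome P450, rose by 3.03 (SE 0.12) and NPY1R, a neuropeptide Y receptor, by 2.86 (SE 0.11). In counts, RASGRP1 went from 40 and 29 to 396 and 497 and NKAIN1 from 144 and 133 to 1603 and 1461. Among the genes that met the naming rule, the largest decreases were smaller than these increases. C2orf54 fell by 2.05 (SE 0.18), the inositol phosphate kinase gene ITPKA by 1.86 (SE 0.24), CCDC154 by 1.72 (SE 0.10), and the prostaglandin transporter gene SLCO2A1 by 1.54 (SE 0.15). Their levels at 0 h were low, with 319 and 247 counts for C2orf54 and 126 and 96 for ITPKA. DDIT4, an inhibitor of mTORC1, was better expressed, at 119 and 105 CPM at 0 h against 44.7 and 36.5 CPM at 8 h.

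**Figure D2:**
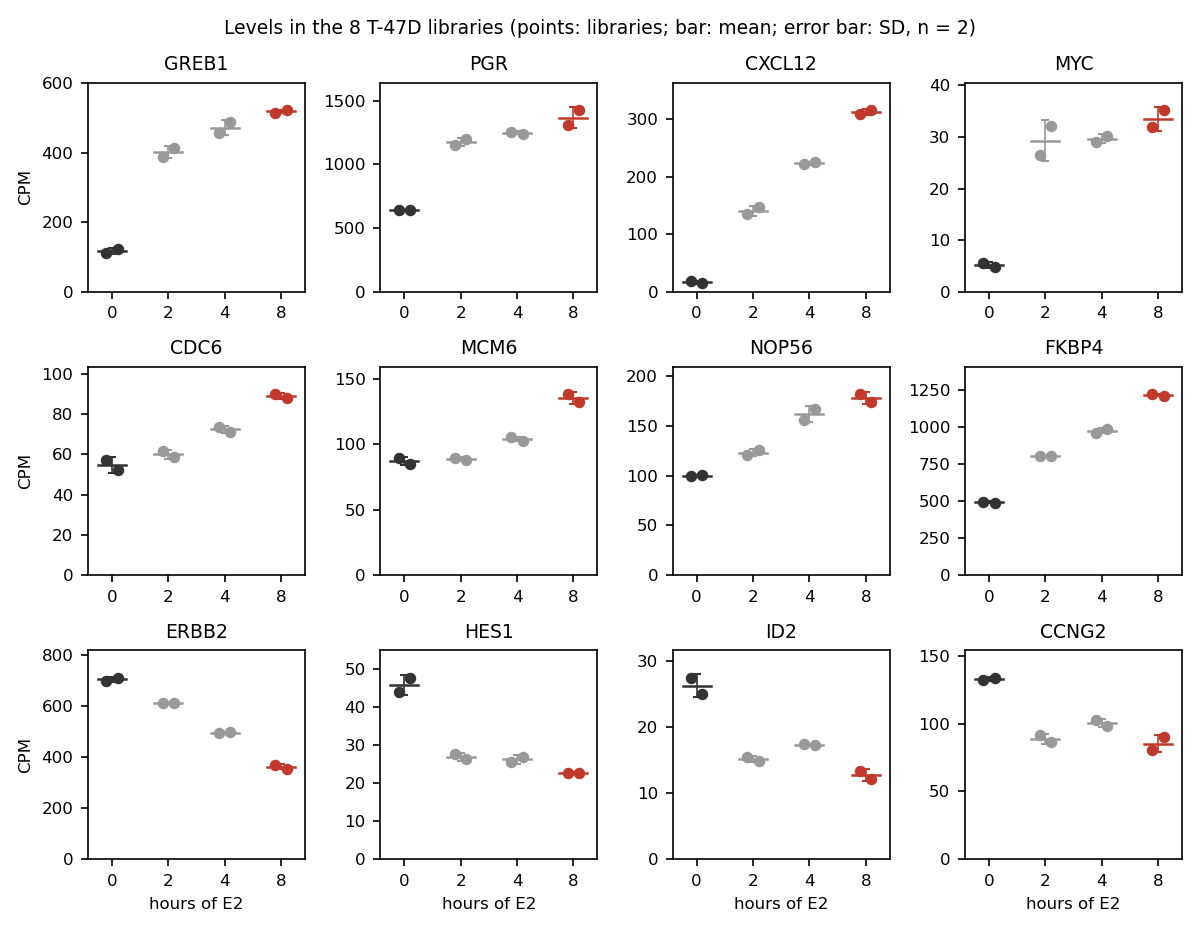
CPM of 12 named genes (y axis, linear from 0) by hours of E2 (x axis: 0, 2, 4, 8) in the 8 T-47D libraries; points are libraries, short bars the mean and error bars the SD of n = 2, with 0 h in black and 8 h in red. Most of the 8 h rise of GREB1, PGR and MYC was present at 2 h, CDC6 and MCM6 rose after 2 h, and ERBB2 fell step by step to 369 and 355 CPM.

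Growth factor genes split between both directions. Of 30 growth factors, receptors and adaptors tested, 10 rose, 8 fell and 12 did not pass, with a median of -0.07. The shares were 33.3% and 26.7%, beside 15.4% and 14.3% of all genes. TGFA, a ligand of the EGF receptor, went from 13.1 and 11.9 CPM to 26.0 and 25.8 CPM, a rise of 1.04 (SE 0.08). AREG, another EGF receptor ligand, rose by 1.54 (SE 0.19) from 2.83 and 2.55 CPM to 9.32 and 6.39 CPM. The receptor tyrosine kinase RET rose by 1.45 (SE 0.18) and IGF1R, the receptor for insulin-like growth factors, by 0.40 (SE 0.04). Over all tested members of this list, log2 fold changes ran from -2.58 to 1.86, and the members at both ends did not meet the naming rule. In either direction 5 called members went beyond 1, beside 1.56% of all genes higher and 0.988% lower.

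ERBB2 (chr17:37844167-37886679, + strand), the HER2 receptor gene, was at 699.9 and 713 CPM at 0 h, 613 and 615 CPM at 2 h, 494 and 497 CPM at 4 h and 369 and 355 CPM at 8 h. The 4 time points did not overlap, and the level at 8 h was 0.513 of that at 0 h (log2 fold change -0.96, SE 0.04, edgeR adjusted p = 1.39e-12). ERBB3, its dimerisation partner, fell by 0.52 (SE 0.04) and the fibroblast growth factor receptor FGFR4 by 0.81 (SE 0.06). FGFR1 fell by 0.42 (SE 0.06) and FGFR2 by 0.43 (SE 0.05), while EGFR at -0.05 and ERBB4 at -0.18 did not pass. ERBB2 overlaps MIEN1 and PGAP3 on the other strand, and the sources do not say whether the counting used strand.

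Transcription factors that promote growth included some of the largest responses. MYC, the basic helix-loop-helix factor of growth and ribosome production, went from 5.56 and 4.73 CPM to 31.8 and 35.2 CPM, an increase of 2.70 on the log2 scale (SE 0.11, edgeR adjusted p = 3.19e-12). It was already at 26.5 and 32.1 CPM at 2 h, and the difference of 0.20 between 8 h and 2 h did not pass its test (edgeR adjusted p = 0.16). MYB rose by 2.10 (SE 0.09) and was lower at 8 h than at 2 h by 0.38. Its relative MYBL1 rose by 1.81 (SE 0.06).

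The E2F family, which governs S-phase genes, moved less. E2F1 went from 58.1 and 52.7 CPM to 89.7 and 81.95 CPM, a rise of 0.63 (SE 0.06), and its partner TFDP1 rose by 0.36 (SE 0.05). In the whole list of 25, 9 rose (36%, beside 15.4% of all genes), 3 fell (12%, beside 14.3%) and 13 did not pass. Their median was 0.12. The fallers were TFDP2 and the MYC antagonists MXD4, at -0.43 (SE 0.05), and MNT, at -0.24 (SE 0.08). The MNT call was lost in 10 of 17 alternative settings, including the leaving out of any single 0 h, 2 h or 8 h library, where its adjusted p rose to at most 0.154.

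In the G1 machinery, 8 of 21 genes rose (38.1%, beside 15.4% of all genes), 4 fell (19%, beside 14.3%) and 9 did not pass. Their median was 0.11. CCND1, encoding cyclin D1, rose by 0.43 (SE 0.05) from 165 and 180.0 CPM to 229.8 and 233 CPM. CDC25A, the phosphatase that activates CDK2, rose by 0.82 (SE 0.08), RBL1, the p107 pocket protein, by 0.50 (SE 0.08), and CCNE2, cyclin E2, by 0.48 (SE 0.07). CDKN2B, encoding the CDK4 and CDK6 inhibitor p15, fell from 98.2 and 109.8 CPM to 62.1 and 65.4 CPM. CDKN1A, encoding p21, fell by 0.36 (SE 0.06) and CCNG2, an atypical cyclin linked to cell cycle exit, by 0.64 (SE 0.05), and CDKN1C, encoding p57, was called lower at under 1 CPM in every 0 h and 8 h library. CCND2 was too low to be tested.

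Most DNA replication genes rose, with none called at 2 h. Of 50 genes of origin licensing, the replicative helicase, the polymerases, clamp loading and nucleotide supply, 41 rose, none fell and 9 did not pass. Their median was 0.37, and the share that rose was 82%, beside 15.4% of all genes. The same 50 had none called higher at 2 h, when 4.9% of all genes were, and 18 at 4 h, when 11.1% were, against the shared 0 h libraries, and 41 were higher at 8 h than at 2 h, where 9.53% of all genes were. MCM10, needed to start unwinding, rose by 0.78 (SE 0.06). CDC6, which loads the helicase on origins, was at 57.4 and 52.1 CPM at 0 h, 61.6 and 58.6 CPM at 2 h and 90.0 and 87.9 CPM at 8 h, a rise of 0.70 (SE 0.05) at 8 h.

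MCM6, a helicase subunit, was at 89.6 and 84.8 CPM at 0 h, 89.8 and 88.1 CPM at 2 h and 138 and 132 CPM at 8 h. The 2 h and 0 h libraries overlapped and the 8 h libraries stood apart from both. The members that missed the threshold included the nucleotide enzymes TYMS at 0.17, RRM1 at 0.09 and TK1 at 0.08.

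Genes of G2 and mitosis that rose did so by small amounts. Of 36, 17 rose (47.2%, beside 15.4% of all genes), none fell and 19 did not pass, with a median of 0.14. MAD2L1, a spindle checkpoint protein, rose by 0.60 (SE 0.08), TTK, a checkpoint kinase, by 0.34 (SE 0.07), and ANLN, a cytokinesis scaffold, by 0.26 (SE 0.05). Cyclin B1, encoded by CCNB1, was at 173 and 175 CPM at 0 h and 176 and 181 CPM at 8 h and did not pass. The count of 17 fell to 8 without the second 0 h library, to 11 without the second 8 h library and to 11 when only the 4 libraries of the comparison were fitted.

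Ribosome biogenesis had the highest share of members called among the 18 lists. Of 52 genes that make and process ribosomal RNA, 49 rose (94.2%, beside 15.4% of all genes), 1 fell and 2 did not pass. Their median was 0.48. By time, 25 were higher and 1 lower at 2 h (4.9% and 4.4% of all genes). At 4 h 42 were higher (11.1% of all genes), over the same 0 h libraries. Between 8 h and 2 h, 32 were higher at 8 h (9.53% of all genes). RRS1, a ribosome assembly factor, went from 28.2 and 27.3 CPM to 55.7 and 55.0 CPM, a rise of 1.00 (SE 0.06). NOP56, a core protein of box C/D snoRNPs, went from 99.5 and 100.3 CPM to 182 and 174 CPM, a rise of 0.83 (SE 0.05). DDX21, a nucleolar helicase chosen after its values were seen, rose by 0.82 (SE 0.05) and nucleolin, NCL, by 0.44 (SE 0.04). Outside this list, the ribosomal RNA precursor RNA45S5 was called lower at -1.12 (SE 0.26), from 1082 and 1705 CPM to 668 and 616 CPM. The noncoding RNAs RMRP, at -2.16 (SE 0.48), and RPPH1, at -3.05 (SE 0.70), were also called lower. The 0 h libraries of all these lay more than 1.5-fold apart, and what they measure in poly(A) libraries was not tested. The single member that fell was UBTF, a factor of RNA polymerase I transcription, at -0.13 (SE 0.05, edgeR adjusted p = 0.0379), and that call was lost in 9 of 17 alternative settings, among them the leaving out of any library but the first 8 h one, where its adjusted p rose to at most 0.249.

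The promoters of the replication and ribosome lists were compared for short DNA motifs, because members of these lists moved together. Promoter windows of 300 bases, from 250 before to 50 after each start site, came from RefSeq on GRCh38.p14 and matched 12005 of the 15594 genes tested. The E2F-type motifs searched were TTTCCCGC, TTTCGCGC, TTTGCCGC and TTTGGCGC, some of which can overlap on opposite strands, and the E-box searched was CACGTG, the core bound by MYC with MAX. Both strands were read, and a gene counted if any of its windows held a match. An E2F-type motif was found in 22 of 44 replication genes with a window (50%), against 6.31% of all genes tested, 9.1% of the genes higher at 8 h and 4.83% of the genes lower. An E-box was found in 19 of 43 ribosome biogenesis genes (44.2%), against 12.3%, 16.4% and 11.7%. Among the other lists the highest shares were 30% for E2F-type motifs (growth-promoting transcription factors) and 29.6% for the E-box (classical targets). Of the genes with a match, 21 of 22 and 18 of 19 were called higher, beside 41 of 50 and 49 of 52 in the whole lists. Whether a match goes with the rise was not tested. In 35116 windows of the whole RefSeq table the shares were 3.31% for E2F-type motifs and 7.26% for the E-box. A match is a run of letters and not a measured binding site.

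The windows shown are those of the called members with the highest log2 fold change that held a match, leaving aside one chromosome. The first set is 3 replication genes with the E2F-type motif in capitals: CDC6 (chr17:40287629-40287928, + strand, with the match starting at base 8 of the transcript), MCM6 (chr2:135876394-135876693, - strand, with 4 matches in overlapping pairs, the first starting at base -152 and the last at -86) and MCM2 (chr3:127598161-127598460, + strand, with 2 overlapping matches from base 3).
CDC6: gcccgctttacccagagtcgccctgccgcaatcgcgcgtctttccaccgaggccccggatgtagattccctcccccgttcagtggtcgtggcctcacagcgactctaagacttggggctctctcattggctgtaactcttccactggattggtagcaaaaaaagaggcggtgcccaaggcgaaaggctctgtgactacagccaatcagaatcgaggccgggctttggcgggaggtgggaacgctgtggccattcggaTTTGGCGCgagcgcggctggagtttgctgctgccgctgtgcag
MCM6: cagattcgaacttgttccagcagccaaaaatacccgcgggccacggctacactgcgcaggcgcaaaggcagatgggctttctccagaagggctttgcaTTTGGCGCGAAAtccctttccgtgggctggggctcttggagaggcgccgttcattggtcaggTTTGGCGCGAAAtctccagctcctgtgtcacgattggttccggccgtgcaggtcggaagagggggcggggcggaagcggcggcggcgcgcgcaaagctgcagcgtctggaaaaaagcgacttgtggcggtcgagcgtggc
MCM2: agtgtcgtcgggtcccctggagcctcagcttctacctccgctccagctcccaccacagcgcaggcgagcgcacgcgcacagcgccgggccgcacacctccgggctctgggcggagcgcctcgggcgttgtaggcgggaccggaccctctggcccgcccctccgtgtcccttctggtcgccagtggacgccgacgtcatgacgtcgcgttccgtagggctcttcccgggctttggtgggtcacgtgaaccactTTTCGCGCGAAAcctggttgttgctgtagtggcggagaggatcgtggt

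The second set is 3 ribosome biogenesis genes with the E-box in capitals: DDX21 (chr10:68956397-68956696, + strand, match at base -31), the nucleolar growth regulator LYAR (chr4:4289972-4290271, - strand, match at base -64) and BYSL, needed for the small ribosomal subunit (chr6:41921249-41921548, + strand, match at base 29).
DDX21: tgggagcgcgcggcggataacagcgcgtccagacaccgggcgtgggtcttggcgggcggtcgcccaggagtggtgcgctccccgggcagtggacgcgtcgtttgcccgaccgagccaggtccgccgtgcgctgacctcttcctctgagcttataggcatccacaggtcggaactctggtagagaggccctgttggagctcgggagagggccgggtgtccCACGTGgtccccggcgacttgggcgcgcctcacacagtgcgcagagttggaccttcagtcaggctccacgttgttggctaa
LYAR: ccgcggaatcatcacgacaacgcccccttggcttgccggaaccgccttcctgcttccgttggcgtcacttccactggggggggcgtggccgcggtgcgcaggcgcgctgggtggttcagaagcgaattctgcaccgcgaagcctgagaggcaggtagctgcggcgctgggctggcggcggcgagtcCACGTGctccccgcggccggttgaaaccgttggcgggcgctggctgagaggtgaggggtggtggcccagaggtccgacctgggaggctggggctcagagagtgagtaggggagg
BYSL: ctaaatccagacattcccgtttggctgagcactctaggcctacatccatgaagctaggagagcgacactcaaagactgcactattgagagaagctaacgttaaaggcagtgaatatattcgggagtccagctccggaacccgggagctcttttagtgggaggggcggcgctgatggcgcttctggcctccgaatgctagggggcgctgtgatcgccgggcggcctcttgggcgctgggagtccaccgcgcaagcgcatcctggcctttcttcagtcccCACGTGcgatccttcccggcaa

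MCM2, a helicase subunit beside MCM6, rose from 130.2 and 123 CPM to 201 and 186 CPM, LYAR from 12.7 and 11.2 CPM to 21.1 and 20.1 CPM and BYSL from 22.0 and 20.2 CPM to 38.4 and 33.2 CPM. In all of them both 8 h libraries lay above both 0 h libraries. The palindromic estrogen response element GGTCANNNTGACC, with N for any base, was in a window of 2 of the 12005 genes (0.0167%) and of 0 of 27 classical targets with a window. These windows end 250 bases before the start site, and distant enhancers were not read.

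**Figure D3:**
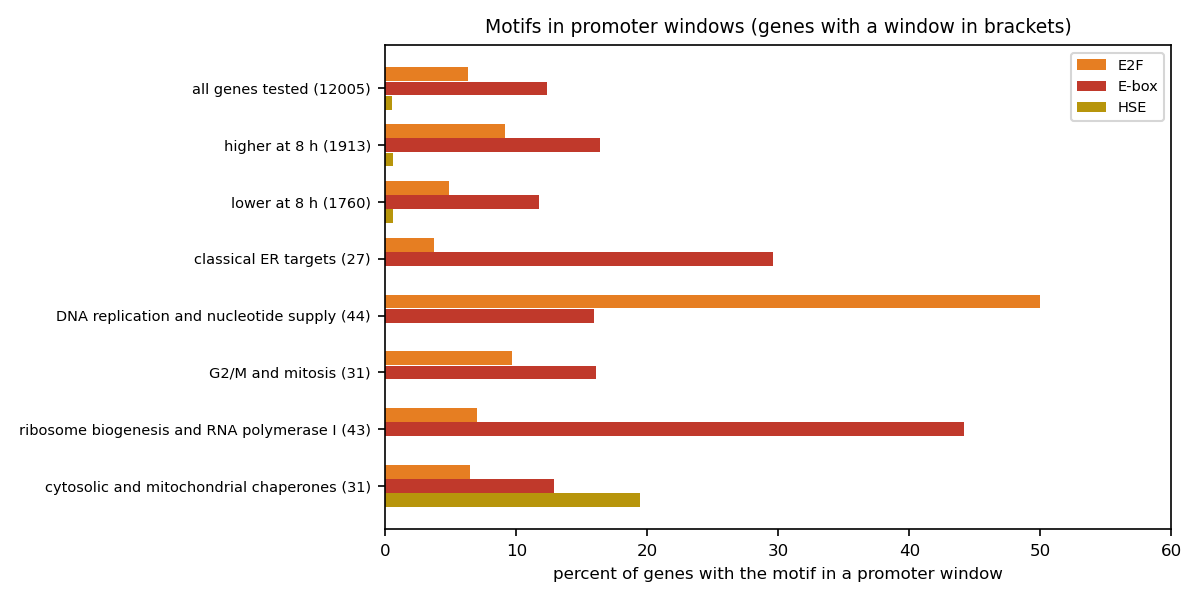
Percent of genes with an E2F-type motif (orange), an E-box (red) or a heat shock element (ochre) in a promoter window (x axis) for all genes tested, the genes higher or lower at 8 h and 5 gene lists (y axis, with the number of genes that had a window). The E2F-type motif stands out in the replication list at 50%, the E-box in ribosome biogenesis at 44.2%, and the heat shock element in the chaperones at 19.4%.

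Most chaperones of the cytosol and mitochondria rose. Of 33 cytosolic and mitochondrial chaperones and cochaperones, 28 rose (84.8%, beside 15.4% of all genes), none fell and 5 did not pass. Their median was 0.34. FKBP4, the FKBP52 cochaperone of steroid receptors, went from 496 and 487 CPM at 0 h to 804 and 804 CPM at 2 h and 1221 and 1211 CPM at 8 h. HSPB8, a small heat shock protein, rose by 1.33 (SE 0.04), and HSPD1, the mitochondrial HSP60, by 0.61 (SE 0.04). HSPA8, the constitutive HSC70, rose by 0.53 (SE 0.03). FKBP5, the FKBP51 cochaperone, moved by 0.15 (SE 0.04), a call lost when only the 4 libraries of the comparison were fitted (adjusted p = 0.0597) and without the second 0 h library (adjusted p = 0.104). The heat shock element, spelled GAANNTTCNNGAA, was in a window of 6 of 31 chaperone genes (19.4%) and of 0.491% of all genes tested.

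Among 27 genes of folding in the endoplasmic reticulum and the unfolded protein response, 2 rose, 5 fell and 20 did not pass. The shares were 7.41% and 18.5%, beside 15.4% and 14.3% of all genes, and the median was -0.02. XBP1, described above, was one of the risers. HSPA5, the BiP chaperone, had a log2 fold change of -0.01. CREB3L4, a membrane-bound transcription factor, fell by 0.44 (SE 0.04) and HERPUD1, a component of protein degradation from this compartment, by 0.33 (SE 0.05). The other fallers were DDIT3, a stress-induced factor, at -0.28 (SE 0.09) and lost without the second 0 h or second 8 h library (adjusted p of at most 0.222), and the disulfide isomerases PDIA4 at -0.12 and P4HB at -0.09. In 9 of the 17 alternative settings only 2 or 3 members were called lower. The second riser, SDF2L1, at 0.26 (SE 0.09), lost its call in 4 settings, among them the leaving out of either 0 h library or the first 8 h one, with an adjusted p of at most 0.27.

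Of 26 targets of ATF4 and genes of amino acid synthesis and transport, 12 rose, 3 fell and 11 did not pass. The shares were 46.2% and 11.5%, beside 15.4% and 14.3% of all genes, and the median was 0.14. The risers included the amino acid transporters. SLC7A5, the LAT1 subunit, went from 446 and 468 CPM to 807 and 804 CPM, its partner SLC3A2 rose by 0.43 (SE 0.04) and the arginine transporter SLC7A1 by 0.79 (SE 0.05). The fallers were the stress-induced inhibitors DDIT4, at -1.46 (SE 0.08), TRIB3, at -0.32 (SE 0.06), and SESN2, at -0.33 (SE 0.06). The highest log2 fold change of a tested member was 1.92, in a gene that did not meet the naming rule. In either direction 3 called members went beyond 1, beside 1.56% of all genes higher and 0.988% lower. In cholesterol and fatty acid synthesis 6 of 29 rose, 4 fell and 19 did not pass, shares near those of all genes. HMGCS1, an early enzyme of the mevalonate pathway, rose by 0.30 (SE 0.04), and SREBF1, which encodes the SREBP1 regulators of lipid synthesis, fell from 291 and 285 CPM to 203 and 183 CPM. Other fallers included FASN, fatty acid synthase, at -0.27 and SREBF2 at -0.17.

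**Figure D4:**
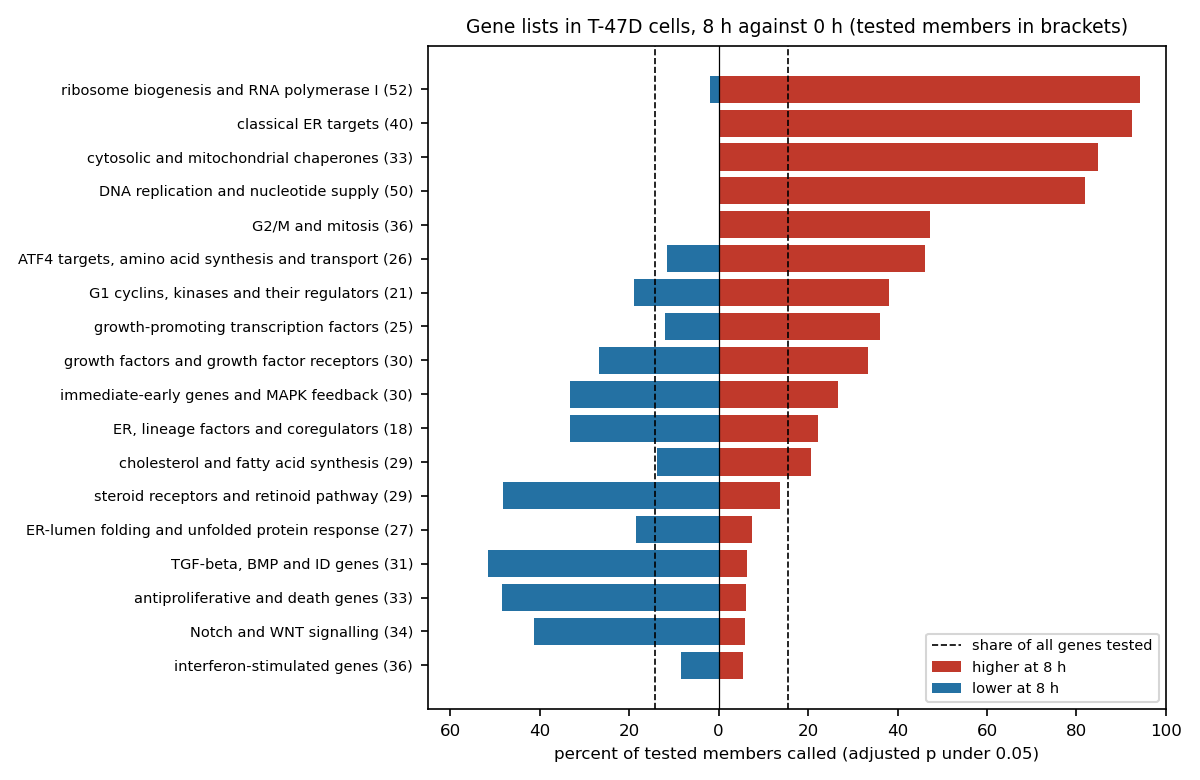
Percent of the tested members of 18 gene lists called higher (red, to the right) or lower (blue, to the left) at 8 h against 0 h (x axis), with the number of tested members in brackets; dashed lines give the shares of all genes tested, 15.4% higher and 14.3% lower. Ribosome biogenesis, the classical targets, chaperones and DNA replication reach furthest to the right, and the TGF-beta, antiproliferative, steroid receptor and Notch and WNT lists furthest to the left.

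Immediate-early genes and feedback inhibitors of MAP kinase signalling were mixed, with 8 of 30 higher, 10 lower and 12 not passing. The shares were 26.7% and 33.3%, beside 15.4% and 14.3% of all genes. JUNB, an AP-1 subunit, fell by 0.77 (SE 0.07) and DUSP10, a phosphatase of stress kinases, by 0.78 (SE 0.11). DUSP4, a phosphatase of ERK, was at 6.73 and 5.36 CPM at 0 h, 4.75 and 5.49 CPM at 2 h and 14.3 and 15.2 CPM at 8 h. Its 8 h libraries lay above all others. The feedback inhibitors SPRY2 and SPRY1 moved apart, SPRY2 by 1.28 (SE 0.18) and SPRY1 by -0.81 (SE 0.15). FOS was at 1.28 and 0.655 CPM at 0 h and 1.54 and 1.62 CPM at 8 h and EGR1 at 1.24 and 1.07 against 1.34 and 1.26 CPM, and neither passed. Over all tested members of this list, log2 fold changes ran from -0.81 to 4.06, and the member at 4.06 did not meet the naming rule. In either direction 3 called members went beyond 1, beside 1.56% of all genes higher and 0.988% lower.

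Among genes that restrain growth or promote death more fell than rose. Of 33, 2 rose (6.06%, beside 15.4% of all genes), 16 fell (48.5%, beside 14.3%) and 15 did not pass. Their median was -0.25. BTG2, an antiproliferative cofactor of deadenylation, fell by 0.98 (SE 0.16), and its relative BTG1, chosen after its values were seen, went from 424 and 447 CPM to 269 and 297 CPM. BBC3, which encodes the death protein PUMA, fell by 0.88 (SE 0.16) from 6.14 and 4.87 CPM to 2.90 and 3.08 CPM, and BMF, another BH3-only gene, by 0.74 (SE 0.06). The members that rose were TOB1, a relative of the BTG genes, by 0.54 (SE 0.04), and PDCD4, an inhibitor of translation initiation, by 0.29 (SE 0.04).

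The TGF-beta, BMP and ID genes fell in a like share. Of 31, 16 fell (51.6%, beside 14.3% of all genes), 2 rose (6.45%, beside 15.4%) and 13 did not pass. Their median was -0.28. ID2, an inhibitor of basic helix-loop-helix factors, went from 27.5 and 25.05 CPM at 0 h to 15.5 and 14.9 CPM at 2 h and 13.3 and 12.1 CPM at 8 h, a fall of 1.05 (SE 0.08) at 8 h. ID1 fell by 0.72 (SE 0.07) and ID3 by 0.81 (SE 0.06). BMP7, a ligand of this family, fell by 1.10 (SE 0.16) and the signal transducer SMAD3 by 0.79 (SE 0.09). The risers were TGFB1, the ligand, at 1.00 (SE 0.29), and SMAD5, at 0.24 (SE 0.06). The TGFB1 call was lost without the first 0 h or first 8 h library (adjusted p of at most 0.12) and the SMAD5 call without the second 0 h or second 8 h library (at most 0.103).

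In Notch and WNT signalling 14 of 34 fell (41.2%, beside 14.3% of all genes), 2 rose (5.88%, beside 15.4%) and 18 did not pass. Their median was -0.12. HES1, the repressor induced by Notch, fell from 44.01 and 47.8 CPM to 22.8 and 22.6 CPM, a log2 change of -1.02 (SE 0.07). HEY2, another Notch target, moved the other way, from 2.16 and 1.65 CPM to 8.24 and 7.81 CPM. ZNRF3, an inhibitor of WNT receptors, rose by 0.67 (SE 0.10) while its relative RNF43, not selected by the naming rule, fell by 0.70 (SE 0.08). The rule also selected the ligands WNT5A, at -1.09 (SE 0.31), and WNT4, at -0.89. Both calls were lost in some alternative settings. WNT5A did not pass at a threshold of 0.01 (edgeR adjusted p = 0.0117), and WNT4 was at -0.57 without the first 0 h library.

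Of 29 steroid receptors and genes of the retinoid pathway, 14 fell, 4 rose and 11 did not pass, with a median of -0.25. That is 48.3% lower and 13.8% higher, beside 14.3% and 15.4% of all genes. The risers PGR, RARA and FKBP5 are described above, and the fourth was the retinoic acid hydroxylase CYP26B1, from 2 counts in each 0 h library. RARG fell by 0.56 (SE 0.05), the retinoid X receptor RXRA by 0.50 (SE 0.04), and the glucocorticoid receptor NR3C1 by 0.46 (SE 0.07). TSC22D3, the glucocorticoid-induced leucine zipper gene, went from 21.9 and 21.3 CPM to 11.6 and 11.4 CPM.

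Of 36 interferon-stimulated genes 2 rose (5.56%, beside 15.4% of all genes), 3 fell (8.33%, beside 14.3%) and 31 did not pass. Their median was -0.19. The risers were HERC5, the ligase of ISG15, by 1.44 (SE 0.18), and HERC6, by 0.78 (SE 0.10). OAS2, an RNA sensor, was at 25.9 and 32.5 CPM at 0 h and 20.4 and 14.96 CPM at 8 h. The other fallers were BST2, a tethering factor, at -0.25 (SE 0.05), and IRF1, at -0.76 (SE 0.21) and lost without the second 8 h library (adjusted p = 0.147). The number that fell depended on single libraries, at 8 and 5 without the first and the second 0 h library and 10 without the first 8 h library.

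The luminal markers themselves moved in both directions: 7 of 19 rose, 9 fell and 3 did not pass. The shares were 36.8% and 47.4%, beside 15.4% and 14.3% of all genes. KRT8, a simple epithelial keratin, rose from 3895 and 3703 CPM to 5687 and 5589 CPM, while KRT7, another, fell by 0.66 (SE 0.05) and the ETS factor ELF3 by 0.81 (SE 0.06). Among basal markers LAMA3, a laminin chain, rose by 0.36 (SE 0.05), and CDH3, P-cadherin, and MYLK, myosin light chain kinase, fell by 0.53 (SE 0.05) and 0.91 (SE 0.09), and the other 6 tested did not pass. Of the basal markers tested, 11.1% thus rose and 22.2% fell, near the shares of all genes. Of 6 fibroblast markers tested, COL1A1, COL5A1, LUM and DCN fell (66.7%, beside 14.3% of all genes). Their log2 fold changes ran from -1.20 to -0.24, and no fibroblast marker rose. The COL1A1 and COL5A1 calls were lost without the second 0 h or second 8 h library (adjusted p of at most 0.0785 and 0.223). Of 2 endothelial and 3 leukocyte markers tested none passed. The part of other cell types in the results was not tested.

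The second comparison asked where the 8 h response differed from the first response measured. It is the test of 8 h against 2 h, which is also the test that the responses at these times, both taken over the same 0 h libraries, differ. Of 15594 genes, 2614 differed (16.8%), 1486 of them higher at 8 h (9.53%) and 1128 lower (7.23%). Of the 2404 genes higher at 8 h than at 0 h, 634 had been called higher at 2 h and 1463 at 4 h, and 916 were called at 8 h only. Of these 2404, 1143 were also higher at 8 h than at 2 h and 49 lower. Of the 2225 genes lower at 8 h, 553 had been called lower at 2 h, 1327 at 4 h, and 857 at 8 h only, and 897 were lower at 8 h than at 2 h. Leaving out the first or the second 2 h library lowered the 1486 to 766 and 742 and the 1128 to 628 and 560.

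The genes with the largest rise after 2 h were KCNQ5, ANKFN1, GRIK4, THSD4 and DUSP4. THSD4, an extracellular matrix protein with thrombospondin repeats, was at 65.2 and 59.7 CPM at 0 h, 63.2 and 65.2 CPM at 2 h, 129.8 and 132 CPM at 4 h and 189 and 183 CPM at 8 h. Its first 2 time points overlapped, and each later pair lay higher. KCNQ5, a voltage-gated potassium channel, was at 2.16 and 1.90 CPM at 2 h but at 12.1 CPM in both 8 h libraries, a difference of 2.57 (SE 0.13). GRIK4, a kainate receptor subunit, went from 9.78 and 10.6 CPM at 2 h to 33.1 and 30.9 CPM.

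Among the genes with the largest fall after 2 h, TMPRSS2 and VASN crossed the 0 h level. TMPRSS2, a membrane serine protease, was at 5.56 and 5.65 CPM at 0 h, 11.4 and 10.6 CPM at 2 h and 3.86 and 3.32 CPM at 8 h. VASN, a membrane protein that binds TGF-beta, was at 24.7 and 23.9 CPM at 0 h, 31.5 and 32.8 CPM at 2 h and 11.6 and 9.97 CPM at 8 h. GRM4, a glutamate receptor, and C2orf54 were lower at 8 h than at 2 h by 1.59 (SE 0.20) and 1.76 (SE 0.18) with no called change at 2 h. LINC00673, a long noncoding RNA, had 35 and 46 counts with vehicle but 85 and 88 after 8 h, below its 2 h level of 5.08 and 5.58 CPM, and its 8 h call was lost without the first 0 h library (adjusted p = 0.0857).

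**Figure D5:**
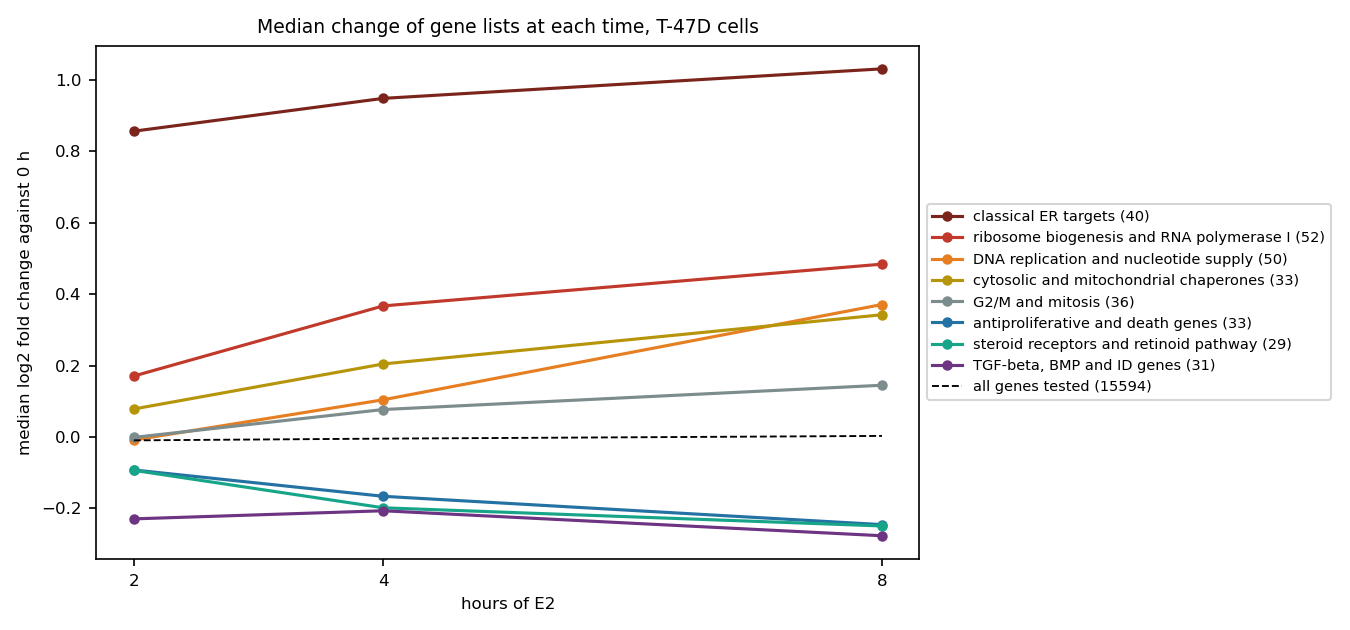
Median log2 fold change of the tested members of 8 gene lists against 0 h (y axis) at 2, 4 and 8 h of E2 (x axis), with the number of tested members in brackets and the median of all 15594 genes as a dashed line; the 3 points of a list share the 0 h libraries. The classical targets were at 0.86 at 2 h and 1.03 at 8 h, and the replication list went from -0.01 to 0.37.

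The list medians at 2, 4 and 8 h show this order by role, with the 0 h libraries shared by all 3 values. The classical targets were at 0.86, 0.95 and 1.03, with 30 of 40 already called higher at 2 h, when 4.9% of all genes were. Ribosome biogenesis went through 0.17, 0.37 and 0.48, the chaperones through 0.08, 0.20 and 0.34, and the replication genes through -0.01, 0.10 and 0.37. The TGF-beta, BMP and ID list stood at -0.23, -0.21 and -0.28, while the antiproliferative list went through -0.09, -0.17 and -0.25. The median over all genes was -0.01, 0.00 and 0.00.

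Several named genes overlap another gene on the opposite strand, among them MYC with CASC11, RARA with RARA-AS1, CCND1 with ORAOV1, ID2 with ID2-AS1, BMP7 with BMP7-AS1, HSPD1 with HSPE1, TOB1 with TOB1-AS1 and KRT8 with KRT18. TMPRSS2 overlaps MX1 and VASN overlaps CORO7 in the same way. Without a stated strand setting the counts of all these genes may hold reads of the partner. HSPA1A and HSPA1B are near-identical copies that share reads, and their values are uncertain.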

How the data were processed

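Poly(A) RNA of T-47D cells was sequenced from directional libraries. Reads had been aligned by the authors with HISAT2 and SAMtools (build hg19) and counted over UCSC Known Genes by featureCounts, before their own DESeq2 tests. They deposited raw counts for 26364 genes. Versions, the strand setting, and the handling of read pairs and multi-mapping reads are not given in the sources used here.

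From these counts, genes were kept with filterByExpr and libraries scaled by TMM in edgeR 4.0.16 (R 4.3.3). All 8 T-47D libraries were fitted together with the time point as a factor of 4 levels and no replicate block, which leaves 4 residual degrees of freedom. Contrasts were tested with the quasi-likelihood F-test at a Benjamini-Hochberg adjusted p under 0.05. SE is the absolute log2 fold change over the root of F. CPM used TMM-scaled library sizes. Gene positions are from GENCODE on GRCh37, which matched 90.5% of symbols. Totals of 41223813 to 64148903 counts set the precision, and intervals were not computed for single counts. The code was tested on simulated counts.

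The members and lists were chosen with earlier results of these data known. Named genes are 14 taken by name, the 8 largest changes in each direction at 8 h, the 3 largest in each direction in each list and the 5 largest in each direction at 8 h against 2 h, among calls with a mean of at least 50 counts, separated groups and replicates within 1.5-fold. Not every gene selected by this rule is reported. Genes outside the rule are reported as well, among them CTSD, IGF1R, FGFR1, E2F1, ID1, ID3 and RNF43, with their values known. Alternatives were DESeq2 1.42.0, scaling by RLE, omission of the filter, a minimum of 10 counts per library, thresholds of 0.01 and 0.1, a replicate block, a fit of the 4 libraries compared, counts divided by 2 and leaving out each library. Columns of Ishikawa cells were not used here.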

Additional observations from a re-analysis of the deposited data

Results flagged for a closer look

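Responses at 8 h and 2 h differed by the test of the difference itself in 1486 genes that were higher at 8 h and 1128 that were lower. Among the genes named for this contrast, KCNQ5 was higher at 8 h than at 2 h by 2.57 on the log2 scale (SE 0.13), ANKFN1 by 1.70 (SE 0.19), GRIK4 by 1.66 (SE 0.08), THSD4 by 1.53 (SE 0.05) and DUSP4 by 1.53 (SE 0.12). Against 0 h, these genes lay between -0.49 and 0.04 at 2 h and between 1.28 and 2.09 at 8 h. In the other direction the differences were -1.76 (SE 0.18) for C2orf54, -1.62 (SE 0.19) for LINC00673, -1.62 (SE 0.13) for TMPRSS2, -1.59 (SE 0.20) for GRM4 and -1.58 (SE 0.09) for VASN. LINC00673 stood at 2.49 at 2 h and 0.87 at 8 h, while TMPRSS2 stood at 0.98 at 2 h and -0.64 at 8 h. The cause of these differences was not tested.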

How the results depend on the processing

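No gene selected by the naming rule changed direction in any alternative. The genes reported outside that rule were not followed one by one through the alternatives. At an adjusted p of 0.01, 1465 genes were lower at 8 h than at 0 h, 92 of them beyond 1 on the log2 scale, and 853 were higher and 613 lower at 8 h than at 2 h. DESeq2 called 2164 higher and 1971 lower at 8 h than at 0 h, with 96 lower beyond 1. With each library left out in turn, the counts ranged from 1808 to 2430 higher and 1619 to 2081 lower at 8 h against 0 h, from 226 to 265 and 112 to 155 beyond 1, and from 742 to 1541 higher and 560 to 1305 lower at 8 h against 2 h. No strong pairing by replicate number was seen, as the correlation of deviations between libraries of the same number ran from -0.05 to 0.06. This does not settle how the replicates were grown, since noise within each pair can hide a weak shared effect. With the replicate block, 2331 genes were higher and 2164 lower at 8 h against 0 h, and 1418 and 1067 at 8 h against 2 h. For the 124 genes selected by the naming rule, 2057 of 2107 values stayed called and 50 were lost, 10 of them in MNT and 9 in UBTF. Selected genes not described above also lost calls, namely BIK, IER3, POLR3G and MSMO1. All 170 values of the 10 genes named at 8 h against 2 h stayed called. Of 612 list counts, 573 stayed within 1.5 times. The cause of these shifts was not tested. Depth limits the genes with few counts, such as KRT13 at 0 h.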

Other observations

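Several genes went from no count in either 0 h library to counts in both 8 h libraries and passed the test. They could pass the count filter only through libraries with E2, so their direction is a description and not evidence. The reverse case, counts at 0 h and none at 8 h, was not examined. PRKAG2-AS1, antisense to a subunit gene of AMP-activated kinase, held 23 and 21 counts at 8 h, which is at least 6.27-fold higher against a floor of 3 counts per library. MAPT-AS1, antisense to the tau gene, held 26 and 17 counts (at least 6.13-fold higher), LINC01426 17 and 18 (at least 4.99-fold) and CD22, a B-cell lectin, 16 and 16 (at least 4.56-fold). CYP2B6, a drug-metabolising P450, held 8 and 15 counts (at least 3.28-fold), SMTNL2 5 and 6 and HMGA1P7 6 and 4. Both antisense genes lie across genes on the other strand.

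In 11 genes the calls at 2 h and 8 h against the shared 0 h libraries had opposite signs. Besides TMPRSS2 and VASN, PRKCD, a protein kinase C, was at 29.4 and 28.6 CPM at 0 h, 46.1 and 49.7 CPM at 2 h and 21.4 and 19.3 CPM at 8 h. P2RY2, a nucleotide receptor, was at 93.2 and 94.2, 119.3 and 126, and 76.8 and 69.5 CPM, and ADAMTS15, a matrix protease, at 67.6 and 58.3, 76.6 and 78.4, and 36.7 and 34.3 CPM. DHRS3, a retinal reductase, DLX3, CRISPLD2, GAB2 and GET4 also went from above to below the 0 h level. KCTD3 went the other way, at 522 and 489 CPM at 0 h, 467 and 455 CPM at 2 h and 545 and 559 CPM at 8 h.

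Of the 4629 calls, 179 had replicates more than 1.5-fold apart at 0 h or 8 h and 177 rested on a mean under 50 counts. The 1.5-fold limit kept large rises from few 0 h counts out of the naming rule. KCNK5 went from 29 and 14 counts to 654 and 645 at 8 h (log2 4.69, SE 0.18), COL27A1 from 1 and 2 to 131 and 98, and LINC01016 from 5 and 2 to 161 and 187. It also kept out falls, among them PFDN6 at -3.22 (SE 0.97) and RPPH1 at -3.05 (SE 0.70). PFDN6, a prefoldin subunit in the major histocompatibility region, held 1137 counts in the second 0 h library and 888 in the first 2 h one, and between 43 and 91 in each of the other 6. SLC25A6, in a pseudoautosomal region, read 63.7 CPM in the first 0 h and 58.8 CPM in the first 4 h library, and between 13.9 and 16.1 CPM in each of the other 6.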
